A study of Arabidopsis thaliana with 6 samples.

Results

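Chlorophyll breakdown enzymes and stay-green genes were examined in Arabidopsis leaves of WT (L*er*) and *rse1-1*, a mutant named for its rapid senescence. The 10 genes, of 33602 in the count table, were taken by locus: the stay-green genes *SGR1*, *SGR2* and *SGRL*, and *NYC1*, *NOL*, *HCAR*, *PPH*, *PAO*, *RCCR* and *CLH1*, which encode enzymes of the pathway. A gene with a mean under 10 counts over the libraries was given as not measured, which left 9. The study sequenced leaf mRNA of both genotypes to find what changes with loss of RSE1, a glycosyltransferase-like protein. WT was the accession L*er*, and *rse1-1* carries, in L*er*, a C-to-T change from chemical mutagenesis that puts a premature stop codon in *RSE1* (AT5G22070). Both genotypes were grown in soil at 22 °C with 16 h of light and 8 h of dark, and rosette leaves 3 and 4 were taken at 16 days after sowing (DAS), with 3 biological replicates for each genotype. *rse1-1* is a single mutagenized allele, no rescued line was among the libraries, and the number of plants in a library is not given in the sources used here.

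Chlorophyll is dismantled in the chloroplast by a fixed series of enzymes when a leaf ages. Chlorophyll b is first reduced to chlorophyll a by NYC1, NOL and HCAR, the stay-green protein SGR1 takes out the central magnesium, PPH cuts off the phytol tail, PAO opens the ring and RCCR reduces the red product to a colourless one. Plants that lack SGR1, PPH or PAO hold their green colour in the dark, which gave the stay-green genes their name.

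The libraries held 9960144 to 11626752 counts on genes in WT and 10360028 to 15244500 in *rse1-1*, and the replicates of a genotype differed by more than sampling noise. *RSE1* itself had 54.4 to 57.5 CPM (counts scaled to a library of 1000000) in WT and 18.9 to 21.2 CPM in *rse1-1*. Of 7 mesophyll markers, 5 were tested and all 5 were lower in *rse1-1*, with a summed level of 7360 to 7460 CPM in WT and 3530 to 4290 CPM in *rse1-1*, while *RBCS2B* was at 0 and *LHCB1.1* had at most 1 count in a library. Markers of other leaf cells moved as well. The summed level of the epidermis markers went from 335 to 376 CPM in WT to 143 to 167 CPM in *rse1-1*, that of the phloem markers from 1420 to 1590 CPM to 1000 to 1060 CPM, and that of the guard cell markers from 158 to 161 CPM to 184 to 194 CPM. Within the guard cell list *KAT1* rose, with a log2 fold change of 1.04, and *FAMA* and *MYB60* fell, with -0.29 and -0.79. Of all genes tested, 38.3% were lower. In bulk leaf RNA, fewer cells of a type and less RNA per cell cannot be told apart, and the part of these markers in the results that follow was not tested. Markers of shoot meristem and flower had at most 1 count in a library, and of the root markers *COBL9* and *PRP3* were at 0 and *CASP1* had 2 to 3 counts in WT and 15 to 34 in *rse1-1*.

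The reads had been aligned to a L*er* genome rebuilt from Col-0, and genes that every cell uses were often low away from the starts of chromosomes: a mean under 10 counts was found for 13.2% of 76 genes of ribosomal proteins in the first 5 Mb and for 46.9% of 258 beyond it. Those within 2 Mb of each member were used as a gauge of its region. The share that was low was 0 to 25% around *SGR2*, *NYC1*, *NOL*, *HCAR*, *PPH* and *CLH1*, and 66.7 to 75% around *SGR1*, *SGRL*, *PAO* and *RCCR*. *NOL*, *HCAR* and *PPH* lie in the first 5 Mb of their chromosomes. For the 4 members in regions with many low genes, whether the counts at the locus belong to the gene or to a neighbour was not tested. Among the markers above, the share was 66.7% around *RCA*, 60% around *LHCB2.1* and *ATML1*, 57.1% around *AHA3* and 50% around *RBCS1A*. It was 0 to 30.8% around *CA1*, *GAPA1*, *FDH* (an epidermis marker) and *SUC2*. Whether the counts at a marker locus belong to that gene was not tested either.

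Of the 9 members tested, 8 were called between the genotypes at an adjusted p under 0.05, 6 of them higher in *rse1-1* and 2 lower. Across all 16294 genes tested, 77.0% were called, 38.8% as higher and 38.3% as lower, so a call alone sets a member apart from few other genes. Among the 6 members in regions with few low genes, *SGR2*, *PPH* and *CLH1* were higher, *NOL* and *HCAR* were lower and *NYC1* was not called. Changes of more than 1 on the log2 scale were found for 5 members, against 31.8% of all genes tested, and 4 of these 5 (*SGR1*, *SGR2*, *PPH* and *RCCR*) were higher. The libraries of the genotypes did not overlap for 8 of the 9 members, and this held for 79.5% of all genes tested. The median log2 fold change was 0.93 over the 9 members and -0.0086 over all genes tested. *SGR2*, with a mean under 10 counts in WT, could pass the filter on low counts only through *rse1-1*, and over the other 8 members tested the median was 0.62, with 5 higher and 2 lower.

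**Figure D1:**
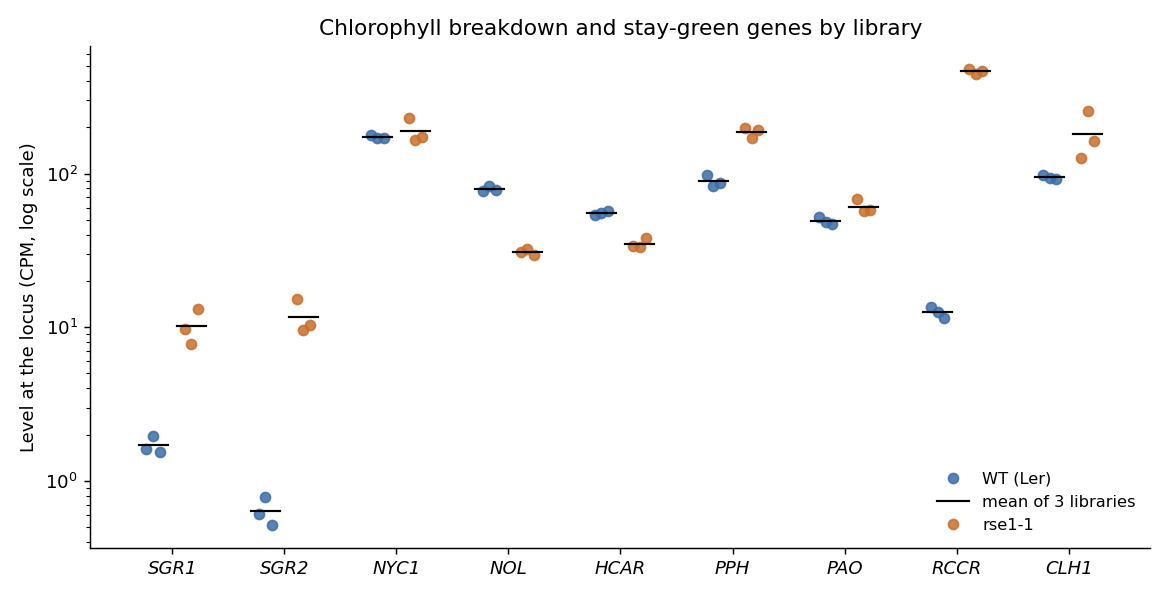
Level at the locus in CPM on a log axis for the 9 measured members, with WT (L*er*) libraries in blue, *rse1-1* libraries in orange and a bar at the mean of each 3 libraries. *RCCR* moves from 12.5 to 463 CPM and *NOL* from 79.4 to 30.7 CPM, while the libraries of the genotypes overlap for *NYC1*.

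*SGR1* and *SGR2* rose from very low levels, and *SGRL* was not measured. *SGR1* (AT4G22920, minus strand, chr4:12016420-12018643 in TAIR10.1) encodes the main magnesium dechelatase of senescing leaves, and *SGR2* (AT4G11910, plus strand, chr4:7156150-7158047) encodes its close relative. Since the 2 genes resemble each other, a stretch of their coding sequence is shown to let a reader see how far reads can be told apart. It comes from RefSeq's TAIR10.1 genome of Col-0, not from L*er*, and covers coding bases 105 to 224 of *SGR1* and 93 to 212 of *SGR2*, with the 13 bases that differ of 120 in capitals.
SGR1: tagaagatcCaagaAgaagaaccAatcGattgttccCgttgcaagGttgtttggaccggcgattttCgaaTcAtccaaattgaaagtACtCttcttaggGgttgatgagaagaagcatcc
SGR2: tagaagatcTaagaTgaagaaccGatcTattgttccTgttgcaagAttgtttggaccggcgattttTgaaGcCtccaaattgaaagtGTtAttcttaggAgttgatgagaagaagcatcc
Over 782 aligned coding bases the genes were 80.1% identical, and their longest shared run was 28 bases. The reads were 75 bases long, and 100% of the stretches of that length in the exons of each gene occurred once in the TAIR10.1 genome.

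At *SGR2*, 6, 8 and 6 reads were counted in WT against 234, 99 and 131 in *rse1-1*. Every *rse1-1* library was above every WT library, and each WT library held more than 3 counts. The level rose from 0.638 ± 0.138 CPM to 11.8 ± 3.04 CPM (SD, n = 3), an 18.4-fold difference, with a log2 fold change of 4.21 (SE 0.282). The adjusted p was 3.55e-09 by edgeR's quasi-likelihood test (Benjamini-Hochberg), the test behind every adjusted p given here. It sets the difference against the spread between these 3 libraries of each genotype, which edgeR estimates with help from all genes tested. The locus next to *SGR2*, AT4G11911, is annotated as another stay-green-like gene and shares 78.1% of its aligned coding bases. Its counts were 6, 10 and 13 in WT against 166, 84 and 131 for *rse1-1*, a log2 fold change of 3.42 (SE 0.233, adjusted p 4.29e-09 by edgeR). Like *SGR2*, AT4G11911 had a mean under 10 counts in WT and could pass the filter on low counts only through *rse1-1*. The other loci around *SGR2* rose as well. *ARCK1*, annotated as a protein kinase, had a log2 fold change of 4.24, AT4G11900 had 0.81 and *CCS52A2* had 0.74.

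The WT libraries held 16, 20 and 18 reads at *SGR1*, against 149, 80 and 164 for *rse1-1*. The groups did not overlap, and the lowest *rse1-1* library was well above the highest WT library. The level rose from 1.71 ± 0.224 to 10.2 ± 2.69 CPM (SD, n = 3), 5.93-fold, with a log2 fold change of 2.57 (SE 0.234, adjusted p 1.07e-07 by edgeR). The loci beside it moved the other way: *FZR2*, which encodes an activator of the anaphase-promoting complex, had a log2 fold change of -0.40, and *PYR4*, which encodes an enzyme of pyrimidine synthesis, had -1.0. Within a library, *SGR1* had 2.72 ± 0.255 counts for each *SGR2* count in WT and 0.899 ± 0.317 in *rse1-1* (SD, n = 3, exact permutation test, two-sided p = 0.1, the smallest that 3 against 3 libraries allow).

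*SGRL* (AT1G44000, minus strand, chr1:16708004-16709713), which encodes a stay-green-like protein active in green leaves, had 0 counts in all 6 libraries and was not measured. With no count seen, a level of up to 3 counts remains possible from counting error alone, or 0.195 to 0.304 CPM by library. Both annotated loci on either side of it were at 0 in every library as well.

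The promoter of *SGR2* is shown because this gene rose most among the members in regions with few low genes, and because letters that abscisic acid and light response factors are known to bind, the core ACGTG and the G-box CACGTG, were searched in the 250 bases before each gene start, on both strands, as was the W-box core TTGAC of WRKY factors. These motifs were chosen with the results known, and CACGTG contains ACGTG. The stretch below is chr4:7155900-7156149 of TAIR10.1, plus strand, with ACGTG on either strand in capitals.
SGR2 promoter: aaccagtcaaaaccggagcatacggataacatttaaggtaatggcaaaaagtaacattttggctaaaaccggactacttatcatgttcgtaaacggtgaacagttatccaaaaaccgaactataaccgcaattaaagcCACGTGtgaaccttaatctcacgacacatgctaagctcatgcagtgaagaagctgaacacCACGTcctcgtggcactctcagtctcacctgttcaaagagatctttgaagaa
It held ACGTG at 3 places, 112, 111 and 52 bases before the start, and the first 2 are the same CACGTG read on both strands. It also held TTGAC once, 245 bases before the start. Of 19660 promoters of this length that overlap no other locus, 23.3% held ACGTG, 6.37% held CACGTG and 45.7% held TTGAC. Among the 7 members with such a promoter, ACGTG was found for *SGR2* and *SGRL*, CACGTG for *SGR2* alone and TTGAC for *SGR2* and *NYC1*. The windows before *PPH*, *HCAR*, *RCCR* and *CLH1* held none of the 3, and those before *SGR1*, *NOL* and *PAO* overlap another locus and were not counted. Among these uncounted windows, that before *NOL*, which fell, held CACGTG 21 bases before the start, and the others held none of the 3.

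The 3 genes that turn chlorophyll b back into chlorophyll a did not rise together. *NOL* and *HCAR* fell, and *NYC1* was not called. *NYC1* and *NOL* encode the chlorophyll b reductase subunits, and *HCAR* encodes the reductase of the next step, which makes chlorophyll a from the 7-hydroxymethyl intermediate. Their summed level was 306 to 310 CPM in WT and 230 to 294 CPM in *rse1-1*.

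*NOL* (AT5G04900, plus strand, chr5:1434774-1437495) had 77, 83.1 and 78.2 CPM in the WT libraries and 30.8, 32.1 and 29.3 CPM in the *rse1-1* libraries. All *rse1-1* libraries were below all WT libraries, and the spread within each genotype was small. Its mean of 79.4 ± 3.23 CPM in WT was 2.59-fold that of 30.7 ± 1.4 CPM in *rse1-1* (SD, n = 3), with a log2 fold change of -1.37 (SE 0.075, adjusted p 3.65e-10 by edgeR). The neighbour *ABO6* also fell, with a log2 fold change of -0.66, and the neighbour AT5G04910 rose, with 0.36.

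*HCAR* (AT1G04620, minus strand, chr1:1282163-1286619) had 54, 55.2 and 56.8 CPM in WT and 33.6, 33.1 and 38.2 CPM in *rse1-1*. Again no library of one genotype reached the range of the other. The mean fell from 55.3 ± 1.41 to 35.0 ± 2.79 CPM (SD, n = 3), 1.58-fold, with a log2 fold change of -0.66 (SE 0.0802, adjusted p 2.53e-06 by edgeR). None of the 13 ribosomal protein genes around *HCAR* was low.

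*NYC1* (AT4G13250, minus strand, chr4:7684156-7687006) had 179, 171 and 171 CPM in WT and 230, 165 and 173 CPM in *rse1-1*. One *rse1-1* library stood above the WT range, another lay within it and the remaining one lay below it. The means of 173 ± 4.46 and 189 ± 35.3 CPM (SD, n = 3) gave a log2 fold change of 0.13 with a 95% interval of -0.094 to 0.35 (adjusted p 0.271 by edgeR). Without *rse1-1* replicate 1 the log2 fold change was -0.026, so the sign rests on that library. *NYC1* and *NOL* are 65.3% identical over their aligned coding bases, with no shared run longer than 14 bases. Of the ribosomal protein genes within 2 Mb of *NYC1*, 11.1% were low. The nearest loci AT4G13245, AT4G13251 and AT4G13252 were at 0 in every library, and *ROPGEF9* had at most 1 count.

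After these steps come the enzymes that remove phytol, open the ring and reduce the product. All 4 were called higher in *rse1-1*, as were 38.8% of all genes tested, and the call of *PAO* depended on the scaling. *PPH* (AT5G13800, minus strand, chr5:4451733-4454813), the pheophytinase that cuts phytol from pheophytin, had 97.9, 83.1 and 86.6 CPM in WT and 199, 170 and 193 CPM in *rse1-1*. The lowest *rse1-1* library was far above the highest WT library. The mean rose 2.1-fold, from 89.2 ± 7.73 to 188 ± 15.2 CPM (SD, n = 3), with a log2 fold change of 1.07 (SE 0.0829, adjusted p 1.71e-08 by edgeR). The locus on one side, *AGL15*, a MADS-box gene, was not called, and that on the other side, AT5G13810, annotated as a glutaredoxin, rose with a log2 fold change of 1.04.

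*CLH1* (AT1G19670, minus strand, chr1:6803486-6805092) encodes a chlorophyllase, which also cuts phytol from chlorophyll but is known to be dispensable for breakdown in senescing leaves. It had 97.7, 93.8 and 91.9 CPM in WT and 127, 254 and 162 CPM in *rse1-1*. All *rse1-1* libraries were above WT, but they differed among themselves far more than the WT libraries did. The mean rose from 94.5 ± 2.97 to 181 ± 65.9 CPM (SD, n = 3), 1.92-fold, with a log2 fold change of 0.93 (SE 0.176, adjusted p 2e-04 by edgeR). Without *rse1-1* replicate 2, the highest, the log2 fold change was 0.63. The neighbouring loci AT1G19660 and AT1G19680 were also higher, with log2 fold changes of 1.04 and 0.49.

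*PAO* (AT3G44880, named *ACD1* in RefSeq, plus strand, chr3:16383595-16386344) encodes the oxygenase that opens the ring of pheophorbide a. It had 52.5, 48.1 and 47.3 CPM in WT and 68.5, 56.7 and 57.5 CPM in *rse1-1*. The groups did not overlap, by a narrow margin. The mean rose 1.23-fold, from 49.3 ± 2.83 to 60.9 ± 6.63 CPM (SD, n = 3), with a log2 fold change of 0.31 (SE 0.0874, adjusted p 0.00488 by edgeR), and with upper quartile scaling it was 0.12 with an adjusted p of 0.222. The locus shares its first bases with the end of AT3G44870, which went from 82.4 to 179 CPM in mean. The next locus, *RPL9*, which encodes a plastid ribosomal protein, had a log2 fold change of 0.33.

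*RCCR* (AT4G37000, named *ACD2* in RefSeq, plus strand, chr4:17442612-17444295), the red chlorophyll catabolite reductase, showed the highest log2 fold change of the 9 members tested. Its counts were 134, 127 and 132 in WT against 7389, 4620 and 5795 for *rse1-1*. Scaled to library size these were 13.6, 12.5 and 11.4 CPM against 481, 447 and 462 CPM, with little spread within either genotype. The mean rose 37.1-fold, from 12.5 ± 1.11 to 463 ± 16.7 CPM (SD, n = 3), with a log2 fold change of 5.22 (SE 0.0916, adjusted p 5.91e-15 by edgeR).

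The loci around *RCCR* did not share this change. *HSF4*, a heat shock factor gene and the locus just before it, had 0 counts in all 6 libraries. *CEN2*, a centrin gene that overlaps the end of *RCCR*, fell with a log2 fold change of -0.56, and AT4G36980 and AT4G37020 had 0.26 and 0.35. Of the 12 ribosomal protein genes within 2 Mb, 8 were low, and whether the counts at *RCCR* belong to that gene or to a neighbour was not tested.

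**Figure D2:**
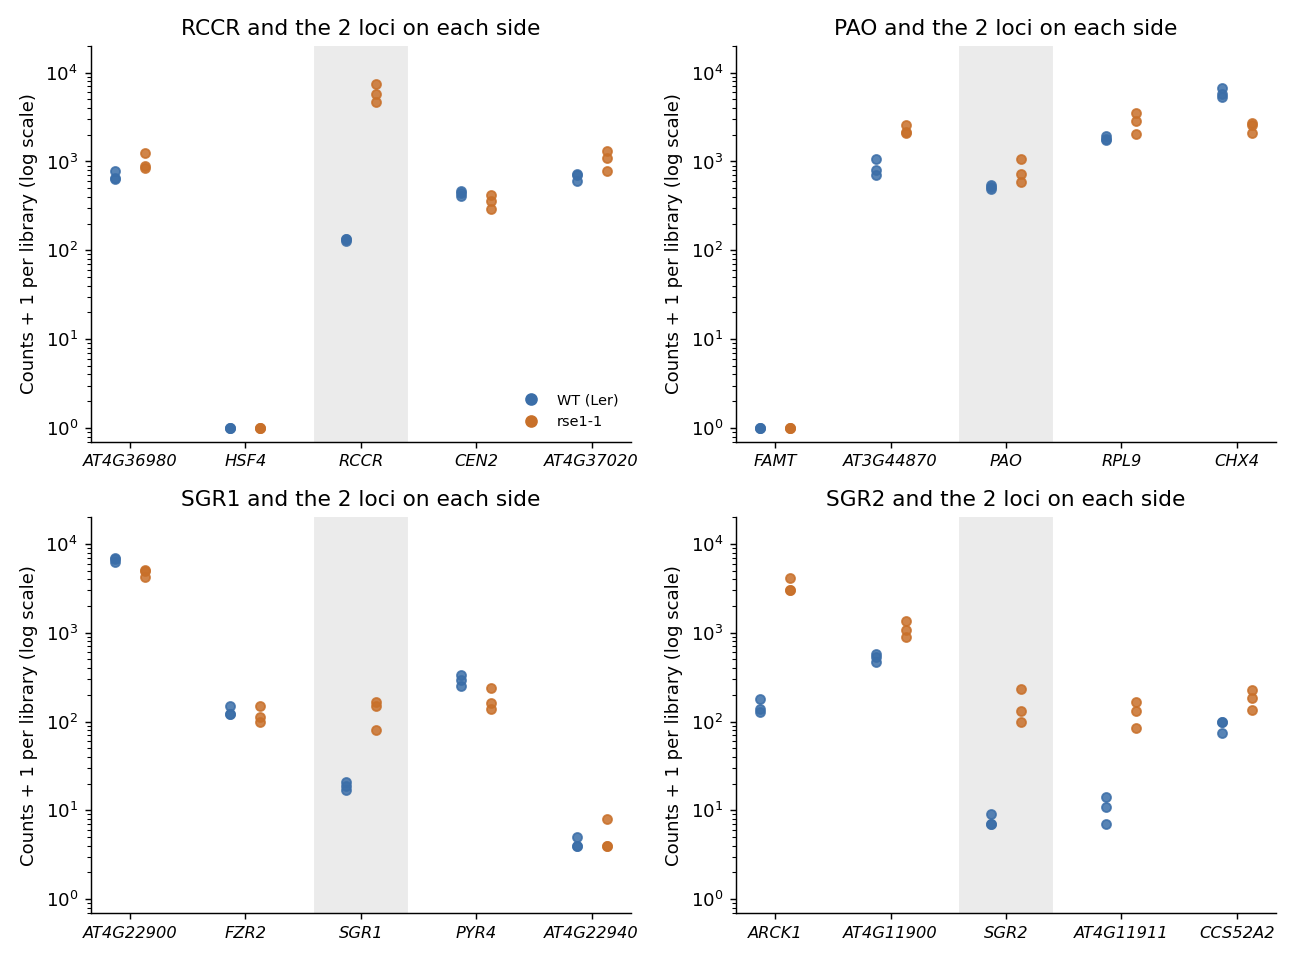
Counts + 1 per library on a log axis at *RCCR*, *PAO*, *SGR1* and *SGR2* (grey bands) and at the 2 loci on each side of them, in order of position, with WT (L*er*) in blue and *rse1-1* in orange. *RCCR* and *SGR1* rise between loci with smaller or opposite changes, in regions with many low genes. Whether the counts there belong to the named gene was not tested. *SGR2* rises together with the loci on both sides of it, of which *ARCK1* and AT4G11911 change most. *HSF4* and *FAMT* are at 0 in all 6 libraries.

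Ratios of counts within a library do not depend on how libraries are scaled, and 5 were computed. *PPH* had 1.27, 1.0 and 1.11 counts for each *NOL* count in WT, against 6.46, 5.31 and 6.6 for *rse1-1*, means of 1.13 ± 0.137 and 6.13 ± 0.707 (SD, n = 3). The same ratio to *HCAR* was 1.61 ± 0.173 in WT and 5.38 ± 0.476 in *rse1-1*, and *NYC1* to *NOL* was 2.19 ± 0.131 and 6.17 ± 1.17. *PPH* to *CAO*, which encodes the oxygenase that makes chlorophyll b, was 0.225 ± 0.0224 and 0.785 ± 0.135. The genotypes did not overlap in any of the 5 ratios, and each gave p = 0.1 in a two-sided exact permutation test, the smallest that this design allows, before and after adjustment over the 5. Apart from *SGR1* to *SGR2*, each ratio set a gene that was higher or not called over a gene called lower. Their separation largely restates those changes and is not further evidence of them. Of single genes tested, 79.5% did not overlap between the genotypes.

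**Figure D3:**
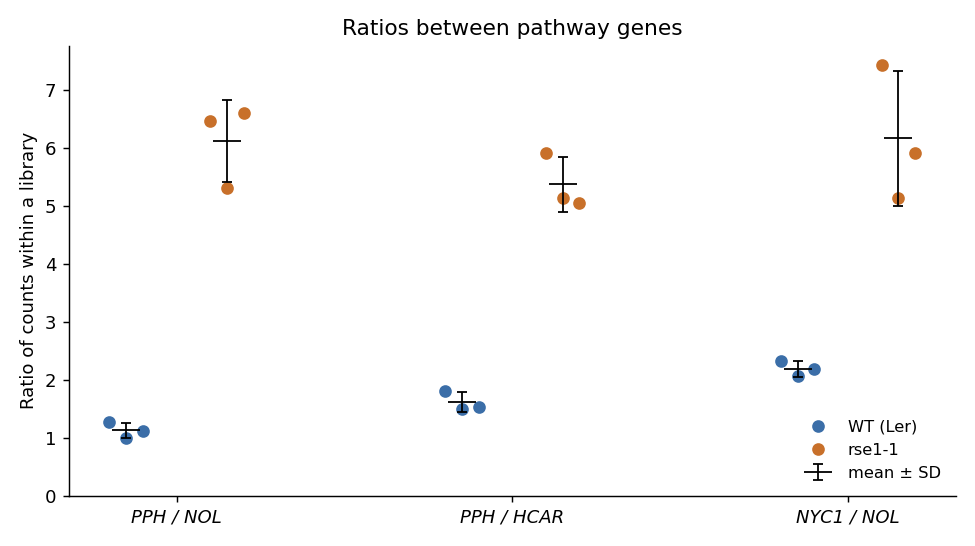
Ratio of counts within a library, on a linear axis from 0, for *PPH* to *NOL*, *PPH* to *HCAR* and *NYC1* to *NOL*, with points for libraries and bars for mean ± SD of 3. All *rse1-1* points lie above all WT points in each ratio.

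To compare levels between genes, CPM were divided by exon length in kb. For *SGR1*, *PAO* and *RCCR*, which lie in regions with many low genes, the order is one of counts at the locus. Whether those counts belong to the gene was not tested. In WT the order of these levels was *NYC1* at 84.0, *CLH1* at 65.0, *NOL* at 56.7, *PPH* at 38.9, *HCAR* at 24.9, *PAO* at 24.4, *RCCR* at 8.29, *SGR1* at 0.971 and *SGR2* at 0.487 CPM per kb. *HCAR* and *PAO* overlapped in their libraries and had no order in WT. In *rse1-1*, *RCCR* came first at 307 ± 11.3 CPM per kb, followed by *CLH1* at 124 ± 45.1, *NYC1* at 91.6 ± 17.1 and *PPH* at 81.8 ± 6.68, with *NYC1* overlapping both *CLH1* and *PPH*. *PAO* followed at 30.2 ± 3.27, *NOL* at 22.0 ± 1.0, *HCAR* at 15.7 ± 1.27, *SGR2* at 8.96 ± 2.32 and *SGR1* at 5.77 ± 1.53 CPM per kb (SD, n = 3). The stay-green genes remained the lowest of the measured members in both genotypes, with libraries that overlapped only between *SGR2* and *SGR1* in *rse1-1*.

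Genes that act after or beside the members were counted from lists of the pathway. Of 38 such genes, 28 were tested, of which 15 were higher and 10 lower in *rse1-1* and 3 were not called, with a median log2 fold change of 0.39. The share called, 89.3%, compares with 77.0% of all genes tested, of which 38.8% were higher and 38.3% lower, and the smaller lists that follow are to be read against the same shares. *NAC046*, *NAC016* and *NAC055* had a mean under 10 counts in WT and could be tested only through *rse1-1*, and without them 12 of 25 genes were higher and 10 lower, with a median of 0.28. Where under 50% of the ribosomal protein genes within 2 Mb were low, 10 of 14 genes tested were higher and 3 lower, with a median of 1.35. Those 14 include the 3 NAC genes. Where at least 50% were low, 5 of 14 were higher and 7 lower, with a median of -0.037. The difference between these groups was not tested.

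Of 6 genes that process and export the catabolites, 4 were tested, of which 3 were higher and 1 lower. *CYP89A9*, a cytochrome P450 that makes the dioxobilin-type catabolites, rose from 20.3 ± 4.73 to 255 ± 39.0 CPM (SD, n = 3), which is 3.66 on the log2 scale (adjusted p 9.51e-12 by edgeR). *ABCC3* and *ABCC2*, transporters of the vacuole known to carry catabolites, had log2 fold changes of 2.71 and 1.51. *TIC55*, the hydroxylase of the primary catabolite, fell with a log2 fold change of -0.73. *MES16*, a methylesterase, had at most 6 counts in a library, and the second chlorophyllase gene *CLH2* was at 0 in all 6. *CYP89A9* and *ABCC3* lie in the first 5 Mb of chromosome 3. Of the ribosomal protein genes within 2 Mb, 73.3% were low around *ABCC2* and 30% around *TIC55*.

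Among the 4 genes that recycle phytol, 2 were higher, 1 was lower and 1 was not called. *PES2* and *PES1*, whose enzymes esterify phytol to fatty acids, had log2 fold changes of 4.52 and 1.05. *VTE5*, the phytol kinase that leads to tocopherol, had 98.8 ± 4.76 CPM in WT and 103 ± 2.93 in *rse1-1* (SD, n = 3), with a 95% interval of the log2 fold change of -0.081 to 0.21, and *VTE6*, the kinase after it, fell with -0.65. The share of ribosomal protein genes within 2 Mb that was low was 72.7% around *PES1* and 60% around *VTE6*, against 33.3% around *PES2* and 15.4% around *VTE5*. Among the 4 genes of chlorophyll formation and its balance with breakdown, 3 were lower and 1 was higher. *CHLG*, the chlorophyll synthase, *CAO* and *BCM1* had log2 fold changes of -1.12, -0.71 and -0.58, and *BCM2*, whose protein like BCM1 is known to hold back breakdown, had 1.33, and all 4 lie in regions where more than 50% of the ribosomal protein genes were low. The chloroplast dismantling genes *CV* and *FTSH6* were not tested, with *CV* at 0 and *FTSH6* at 5 counts or fewer.

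Of 22 transcription factor genes known to act on breakdown genes, 16 were tested, of which 9 were higher, 5 lower and 2 not called. Without *NAC046*, *NAC016* and *NAC055*, 6 of 13 were higher and 5 lower, with a median log2 fold change of 0.28. *NAC046*, an activator of *SGR1* and other breakdown genes, had counts of 10, 11 and 5 in WT against 482, 219 and 444 for *rse1-1*, a log2 fold change of 5.15 (adjusted p 2.72e-10 by edgeR). *NAC016* had a log2 fold change of 4.66, and *NAC055* went from 1, 1 and 2 counts to 1030, 463 and 663. *ORE1*, *NAP*, *NAC019*, *NAC072* and *MYC3* were at 0 in every library and *ABI5* was too low to test, so that much of the NAC group known to act on the members was not measured.

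The other factors moved in both directions. Among the ethylene and jasmonate factors, *EIN3* and *MYC2* rose, with log2 fold changes of 0.76 and 1.77, and *EIL1* and *MYC4* fell, with -0.76 and -1.02. Of the bZIP genes of abscisic acid signaling, *ABF4* and *EEL* rose, with 0.92 and 0.36, while *ABF2* had 0.13 and *ABF3* had 0.28, neither called. *GLK1* rose and *GLK2* fell, with 0.79 and -1.10, although both encode activators of chlorophyll synthesis genes. *PIF5* rose with 0.42, and *PIF4* and *SOC1* fell with -0.51 and -0.20. Around *MYC4*, *ABF2*, *ABF3*, *EEL*, *PIF4*, *PIF5* and *SOC1*, 55.6 to 73.3% of the ribosomal protein genes within 2 Mb were low. Around *EIN3*, *EIL1*, *MYC2*, *ABF4*, *GLK1* and *GLK2* the share was 7.69 to 44.4%.

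**Figure D4:**
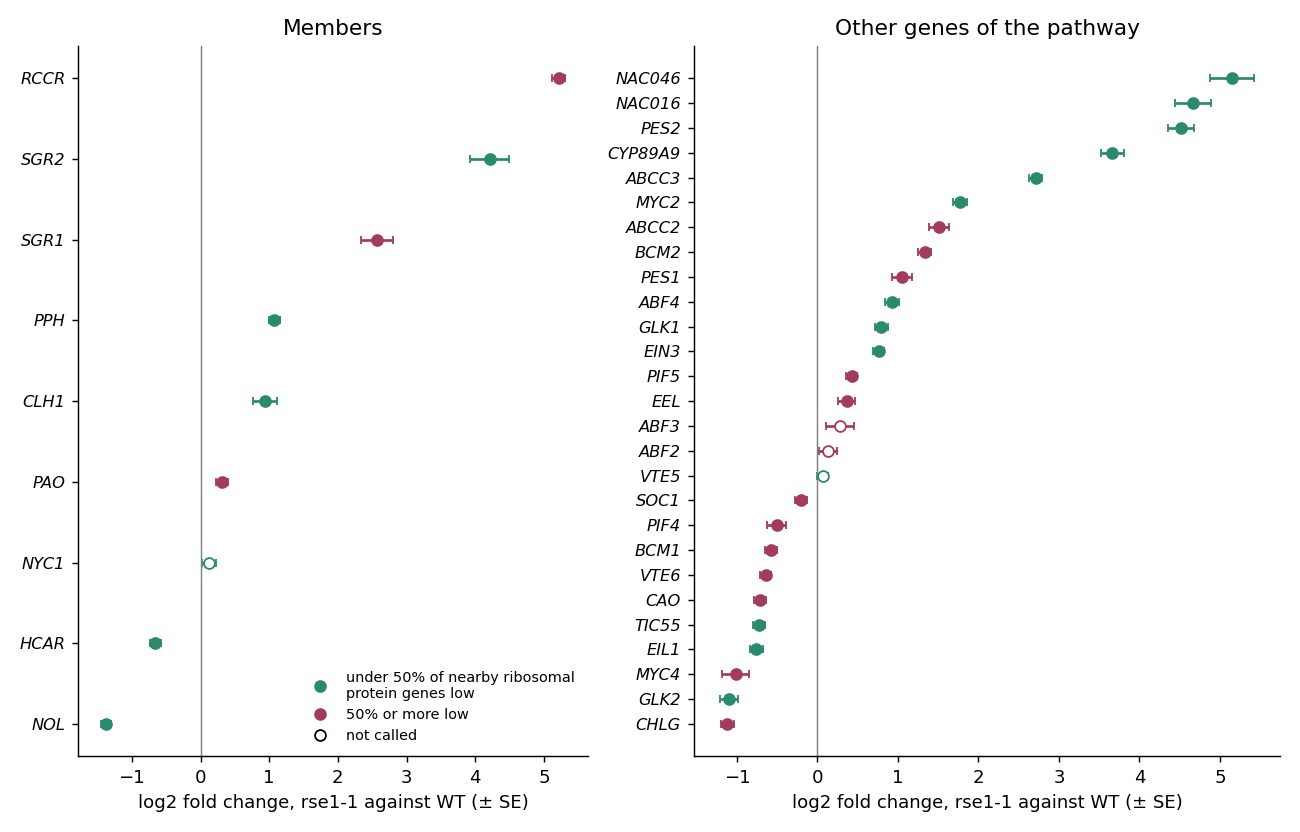
Log2 fold change of *rse1-1* against WT with its SE for the 9 measured members (left) and 27 other tested genes of the pathway (right, without *NAC055*, which had at most 2 counts in WT libraries), green where under 50% of the ribosomal protein genes within 2 Mb were low, red where 50% or more were low, and open where not called. Members run from -1.37 for *NOL* to 5.22 for *RCCR*.

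The genes with the profiles most like those of *RCCR* and *NOL*, the members with the highest and lowest log2 fold change, were named by the root mean square distance of centred log2(CPM + 0.5) over the 6 libraries. For *RCCR* these were AT4G13820, a leucine-rich repeat gene, at a distance of 0.1, AT1G78420, a RING/U-box gene, at 0.109, and *WRKY41* at 0.112. *WRKY41* was at 0 in WT, AT1G78420 had 7 to 10 counts there and AT4G13820 had 12 to 16. All these distances thus depend in part on the 0.5 CPM added before taking logs. For *NOL* they were AT2G19940 at 0.0198, AT3G19480 at 0.0225 and *EMB3111* at 0.024. The first encodes an N-acetyl-gamma-glutamyl-phosphate reductase and the second a D-3-phosphoglycerate dehydrogenase, both enzymes of amino acid synthesis.

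Scaling moved the balance of all calls but few of the members. With upper quartile scaling the median log2 fold change of all genes was -0.20 and the calls were 5112 higher and 7633 lower, or 40.1% higher in place of 50.3%. Under that scaling 7 members were called, and *NYC1* had -0.065.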

How the data were processed

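Leaf mRNA of 3 WT (L*er*) and 3 *rse1-1* samples was sequenced from strand-specific libraries. The deposited values are raw counts per gene: the authors trimmed single reads of 75 bases (Trimmomatic 0.32.3), aligned them with TopHat 2.0.9 to a L*er* genome rebuilt from Col-0 (TAIR10 in the submitters' processing notes), removed PCR duplicates (Picard 1.119) and counted unique reads with HTSeq 0.6.1. The strand setting and annotation version are not given in the sources used here. Entries that name no gene held 47.0 to 48.7% of each library and were left out, and no sample column was unused. Symbols and positions came from RefSeq's TAIR10.1, which matched 32835 of 33602 loci.

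Genes passing filterByExpr were tested by genotype with TMM scaling and edgeR 4.0.16 (R 4.3.3) in all 6 libraries, with Benjamini-Hochberg adjustment over all genes tested. A call was an adjusted p under 0.05, and the SE was taken from the F statistic. Alternatives used DESeq2 1.42.0, limma-voom (limma 3.58.1), other scalings, filters and thresholds, a replicate block and each library left out. On simulated counts, edgeR recovered 89 of 98 genes changed by 1 and 98 of 98 changed by 2 on the log2 scale among 16202 tested, with 6 others called. In that simulation few genes were changed, up and down alike, and all genes had the same dispersion. In the data 77.0% of genes were called, so the simulation does not give the rate of false calls there. Deviations of same-numbered libraries correlated at 0.042, 0.076 and -0.073, so the numbers were not taken as pairs.

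The members and lists were chosen with earlier results of these data known. All members were named, from each list the genes averaging 10 CPM or more plus up to 3 others, the loci beside a low or changed member, and the 3 nearest profiles of the highest and lowest member. *MES16*, *CLH2*, *ABF3* and the other low or undetected list genes given as counts were named to account for the lists.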

Additional observations from a re-analysis of the deposited data

How the results depend on the processing

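The direction and call of *SGR1*, *NOL*, *HCAR*, *PPH*, *RCCR* and *CLH1* held under 14 alternatives of tool, scaling, filter, block and library left out, and those of *SGR2* under 13, since the filter of at least 10 counts in every library removed it and left 7 members called. *NYC1* stayed uncalled but had a log2 fold change of -0.065 with upper quartile scaling and -0.026 without *rse1-1* replicate 1, and -0.026 to 0.23 over the libraries left out in turn. Among these 14, *PAO* lost its call with upper quartile scaling (0.12, adjusted p 0.222 by edgeR), and the cause was not tested. With calls limited to changes over 1 on the log2 scale, 5175 genes, 5 members, 2 genes of chlorophyll formation and balance and 6 transcription factor genes were called, and *HCAR*, *CLH1* and *PAO* were not. Restricted to the first 5 Mb of chromosomes, 3295 of 4134 genes and 3 of 3 members were called. Over the libraries left out in turn, 11911 to 12546 genes and 8 members were called. With the replicate block the counts were 12546 genes and 8 members, and it changed no call of a member, while the same-numbered libraries correlated at 0.042, 0.076 and -0.073, and not every library correlated best with its own number. No gene of the chloroplast dismantling list passed the filters on low counts of the edgeR fits, and none was called by any tool or without a filter. Without genes under 10 counts in mean in one genotype, an alternative chosen after seeing the data, 7 of 8 members and 11 of 13 transcription factor genes were called. Depth limits *SGR2*, at 6 to 8 counts in WT, and why *SGRL* and the loci around it were at 0 was not tested.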
